A study of Rattus norvegicus with 9 samples.

Results

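Mitochondria carry a small circular genome of their own. It is transcribed into long RNAs that are cut into separate messengers, and it encodes membrane subunits of the respiratory chain: parts of complex I (NADH dehydrogenase), cytochrome b of complex III, the catalytic core of complex IV (cytochrome c oxidase) and parts of complex V (ATP synthase). All other subunits of these complexes are made from nuclear genes. Brain tissue depends heavily on this chain for its ATP, and mitochondrial messengers are among the most abundant RNAs in brain libraries. The genes described here are 8 of the mitochondrially encoded genes, chosen by their Ensembl rat identifiers: Mt-nd1 (ENSRNOG00000030644), Mt-nd2 (ENSRNOG00000031033), Mt-nd4 (ENSRNOG00000029707), Mt-nd5 (ENSRNOG00000029971), Mt-cyb (ENSRNOG00000031766), Mt-co1 (ENSRNOG00000034234), Mt-co2 (ENSRNOG00000030371) and Mt-atp6 (ENSRNOG00000031979). They are 8 of the 34784 rows of the deposited count table and 8 of the 17345 genes with enough counts to be tested. By these names, all 8 lie on the mitochondrial chromosome. The table gives identifiers without symbols, so the pairing of name and identifier could not be checked against the data. It also does not say how reads that match both a mitochondrial gene and a copy of it in the nuclear genome were treated, which leaves the level of each gene uncertain to that extent.

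The tissue was rat hypothalamus (S-D strain) holding the supraoptic nucleus (SON) and the paraventricular nucleus (PVN), where magnocellular neurons make vasopressin and oxytocin. Bulk RNA sequencing was done on 3 libraries labelled Control and on 3 libraries from each of 2 times, 1 d and 7 d, after an operation labelled PEL. The abbreviation is not explained in the labels; the published study uses it for an electrical lesion of the pituitary stalk, through which the axons of these neurons run to the posterior pituitary. The labels do not give the age or sex of the rats, what was done to the Control animals, or whether a library stands for 1 animal. P-values therefore measure the spread between these libraries, which may be technical. In bulk tissue, fewer cells of a type and less RNA per cell cannot be told apart.

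Libraries held 18948576 to 21012998 counts in Control, 13338433 to 17294334 at 1 d and 17014260 to 18685921 at 7 d, so every 1 d library was shallower than every Control library. The lowest count of any of the 8 genes in any library was 19763, where counting error is 0.711%. The smallest SD between replicates of any of these genes was 1.39% of the mean, for Mt-co2 at 1 d. Levels are given in CPM, counts divided by the library size in units of 1e6, with library sizes scaled by TMM, edgeR's trimmed mean of M values. CPM values are not divided by gene length. They are compared between groups, not between genes, except where genes are ranked by change in CPM or chosen by a CPM bound. Control replicate 1 stood apart. In 7 of the 8 genes it had the highest CPM of the 9 libraries. In these 7 it was from 1.33-fold (Mt-cyb) to 2.01-fold (Mt-nd4) the mean of the other 2 Control libraries. For Mt-co2 this ratio was 1.34-fold. Its median over all tested genes was 0.990, but TMM scaling sets the typical ratio between libraries near 1. That median therefore does not show that the library was ordinary outside the 8 genes. Over all genes tested, 177 were called at 7 d against Control, and 739 without Control replicate 1. Log2 fold changes against Control without this library are given for each gene at 1 d, and at 7 d for some genes only as a range. For Mt-co2 at 1 d the log2 fold change was 2.15 with this library and 2.30 without it.

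At 1 d, Mt-co2 rose 4.43-fold while Mt-co1, Mt-cyb and Mt-atp6 fell to 0.675, 0.709 and 0.589 of their Control levels. The complex I genes Mt-nd1, Mt-nd2, Mt-nd4 and Mt-nd5 stood at 0.659 to 0.782 of Control and did not pass the test. By 7 d, none of the 8 genes differed from Control in the test across all genes, and 6 had moved back from their 1 d level in the opposite direction to their 1 d difference. In numbers, 1 of 8 genes was higher and 3 were lower at 1 d (edgeR's quasi-likelihood test, called below an adjusted p of 0.05 by the Benjamini-Hochberg method). Over all genes tested 11.4% were higher, 9.01% were lower and 20.4% were called in either direction. In 6 of the 8 genes the 1 d and Control libraries did not overlap, which was so for 39.7% of all genes tested. When counts were scaled by library totals alone, the split over all genes moved from 1977 higher and 1563 lower to 2471 and 856, and the calls of the 8 genes were again 1 higher and 3 lower.

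**Figure D1:**
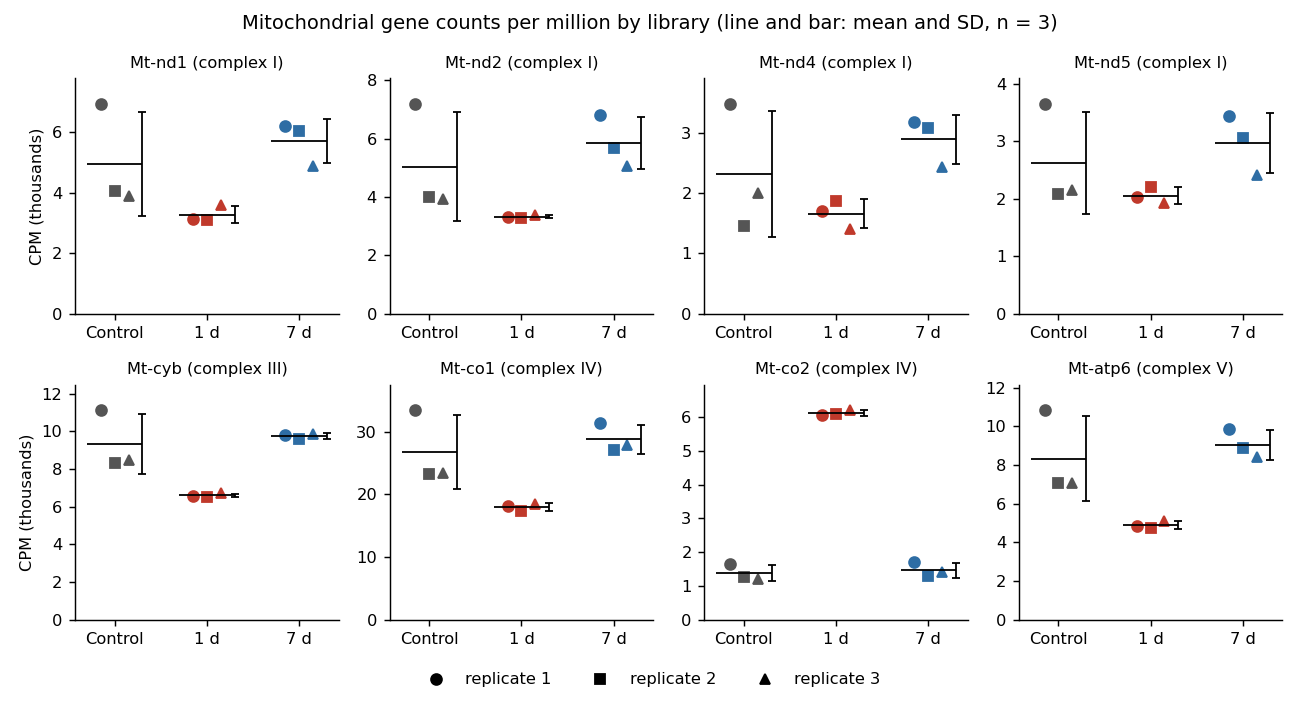
CPM in units of 1000 (vertical axis, starting at 0 in each panel) of the 8 genes in Control, 1 d and 7 d libraries; each symbol is 1 library, the line is the group mean and the bar beside it the SD (n = 3). Mt-co2 sits at 6045 to 6213 CPM at 1 d and at 1211 to 1700 CPM in the other 6 libraries, and for the other 7 genes Control replicate 1 (grey circle) is the highest library.

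Mt-co2 encodes the subunit of cytochrome c oxidase that receives electrons from cytochrome c. It was at 1662, 1276 and 1211 CPM in Control replicates 1 to 3, at 6045, 6101 and 6213 CPM at 1 d and at 1700, 1287 and 1401 CPM at 7 d. The 1 d libraries lay close together and far above the other 6, whose values overlapped. The group means were 1383 ± 244, 6120 ± 85.3 and 1463 ± 213 CPM (SD, n = 3 each). The log2 fold change was 2.15 at 1 d against Control (SE 0.136, edgeR adjusted p = 0.000231), higher in 3 of 3 libraries than any Control library. From 1 d to 7 d it was -2.06 (SE 0.136, edgeR adjusted p = 0.00026), and at 7 d against Control it was 0.08 (SE 0.131, edgeR adjusted p = 0.86). In raw counts, before any scaling, Mt-co2 had 23827 to 31717 in Control and 87903 to 108019 at 1 d, although the 1 d libraries were shallower. The treatment of reads shared with nuclear copies is not given for Mt-co2 either, sequence differences between the animals at this gene were not analysed here, and the part of either in its values was not tested.

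No tested gene had a smaller p than Mt-co2 in either comparison, at 1 d against Control or at 7 d against 1 d. Its gain of 4737 CPM at 1 d was larger than that of any other gene tested, although 156 genes had larger log2 fold changes. Among the 83 genes with a mean of at least 1000 CPM, a bound chosen after the values were seen, 3 were called higher at 1 d, and 2 of these were over 4-fold higher, one of which was Mt-co2. Mt-co1 was the single gene that lost at least as many CPM as Mt-co2 gained. Gains and losses in CPM scale with a gene's level, and in Control Mt-co1 was at 26694 CPM against 1383 for Mt-co2. Whether the changes of these genes are linked was not tested. Among genes outside the 8, the largest loss was 3615 CPM, that of ENSRNOG00000030700, whose symbol was not available here. Across the 21 alternative settings the log2 fold change of Mt-co2 lay between 2.05 and 2.40 at 1 d against Control, and it was called in all 21.

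**Figure D2:**
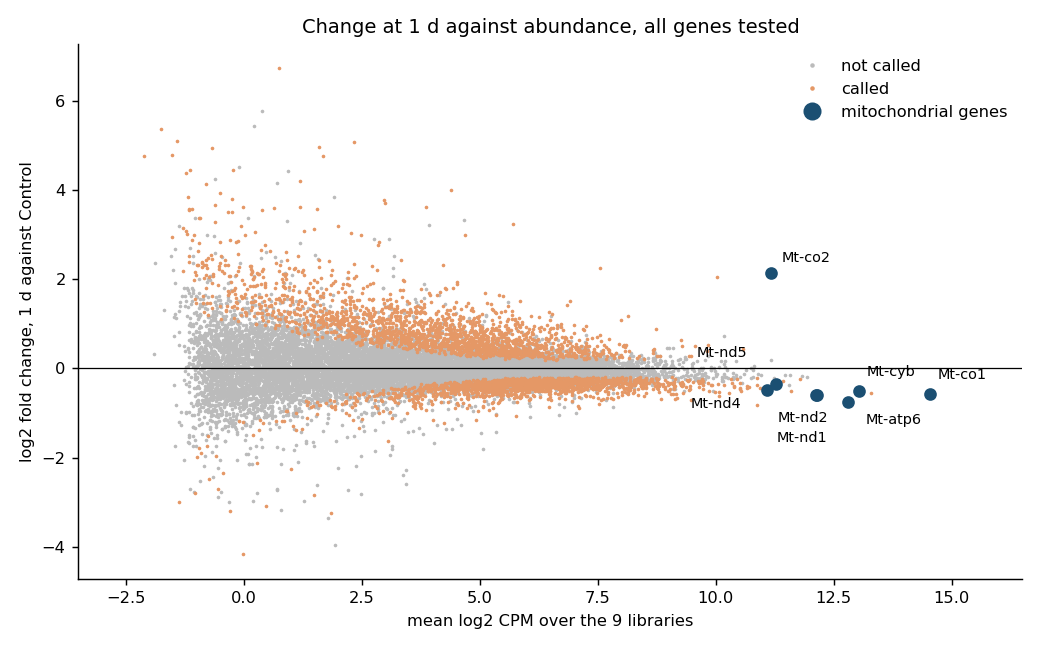
Log2 fold change at 1 d against Control (vertical axis) against mean log2 CPM over the 9 libraries (horizontal axis) for the 17345 genes tested; orange points were called at an adjusted p below 0.05, grey points were not, and the 8 mitochondrial genes are marked in blue. Mt-co2, at a log2 fold change of 2.15, lies far from the other 7, which lie between -0.76 and -0.36 at the abundant end of the plot.

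Mt-co1 encodes the subunit of cytochrome c oxidase that holds the site of oxygen reduction. It was at 33485, 23178 and 23420 CPM in Control replicates 1 to 3, at 18184, 17301 and 18538 CPM at 1 d and at 31448, 27011 and 27934 CPM at 7 d. Every 1 d library was below every other library, while Control and 7 d overlapped. The mean fell from 26694 ± 5882 to 18008 ± 637 CPM (SD, n = 3 each). At 1 d against Control its log2 fold change was -0.57 (SE 0.139, edgeR adjusted p = 0.0197). At 7 d it was 28798 ± 2341 CPM, 1.60-fold the 1 d level (log2 fold change 0.68, SE 0.139, edgeR adjusted p = 0.00595). Both genes of complex IV in this set were thus called at 1 d, in opposite directions.

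Mt-cyb encodes cytochrome b, the mitochondrially encoded subunit of complex III. It was at 11150, 8338 and 8481 CPM in Control replicates 1 to 3, at 6577, 6526 and 6715 CPM at 1 d and at 9831, 9603 and 9859 CPM at 7 d. The spread was widest in Control, with an SD of 1584 CPM against 98.0 at 1 d and 141 at 7 d. The log2 fold change was -0.50 at 1 d against Control (SE 0.108, edgeR adjusted p = 0.0133) and 0.56 at 7 d against 1 d (SE 0.108, edgeR adjusted p = 0.00457). All 1 d libraries were below all others, and the 7 d libraries lay inside the Control range.

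Mt-atp6 encodes the subunit of ATP synthase that forms the path for protons through the membrane. It was at 10853, 7045 and 7045 CPM in Control replicates 1 to 3, at 4866, 4725 and 5108 CPM at 1 d and at 9873, 8862 and 8389 CPM at 7 d. No 1 d library overlapped the others. At 1 d it stood at the lowest fraction of Control of the 8 genes: the log2 fold change was -0.76 (SE 0.156, edgeR adjusted p = 0.0112), and from 1 d to 7 d it rose 1.85-fold (log2 fold change 0.88, SE 0.157, edgeR adjusted p = 0.00336).

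The 4 complex I genes encode core subunits of the membrane arm, which pumps protons. Mt-nd1 was at 6953, 4071 and 3886 CPM in Control replicates 1 to 3, at 3126, 3105 and 3595 CPM at 1 d and at 6229, 6042 and 4890 CPM at 7 d. Mt-nd2 was at 7199, 3985 and 3942 CPM in Control, at 3303, 3285 and 3374 CPM 1 d after surgery and at 6816, 5693 and 5054 CPM at 7 d. In both genes every 1 d library was below every other library, but the Control SD was 1720 and 1868 CPM. Both had a log2 fold change of -0.60 at 1 d against Control that was not called (edgeR adjusted p = 0.0758 for Mt-nd1 and 0.0905 for Mt-nd2). Without Control replicate 1 these differences were -0.28 and -0.26, also not called (edgeR adjusted p = 0.0998 and 0.125). With all 9 libraries, DESeq2 called Mt-nd1 lower (adjusted p = 0.0125) but not Mt-nd2 (adjusted p = 0.0985). From 1 d to 7 d both rose, Mt-nd1 by 0.80 on the log2 scale (SE 0.213, edgeR adjusted p = 0.0214) and Mt-nd2 by 0.82 (SE 0.225, edgeR adjusted p = 0.0259).

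Mt-nd4 was at 3485, 1461 and 2005 CPM in Control replicates 1 to 3, at 1697, 1873 and 1397 CPM at 1 d and at 3179, 3081 and 2432 CPM at 7 d. Mt-nd5 was at 3653, 2081 and 2143 CPM in Control, at 2023, 2208 and 1926 CPM 1 d after surgery and at 3445, 3047 and 2409 CPM at 7 d. In these 2 genes the 1 d and Control libraries overlapped, and every 7 d library was above every 1 d library. At 1 d the log2 fold changes were -0.48 for Mt-nd4 and -0.36 for Mt-nd5 (edgeR adjusted p = 0.285 for each). From 1 d to 7 d they were 0.81 (SE 0.298, edgeR adjusted p = 0.0794) and 0.53 (SE 0.22, edgeR adjusted p = 0.106), and neither passed the test. The rises of Mt-nd1 and Mt-nd2 between the times were lost without 7 d replicate 1 or 2 and without 1 d replicate 1 or 2, and that of Mt-nd2 also without 1 d replicate 3. Without Control replicate 1, Mt-nd4 and Mt-nd5 were called too, and Mt-nd4 also without Control replicate 2. In a fit of the 1 d and 7 d libraries only, Mt-nd4 (edgeR adjusted p = 0.00255) and Mt-nd5 were called as well. DESeq2 called Mt-nd5 but not Mt-nd4 (adjusted p = 0.0611).

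**Figure D3:**
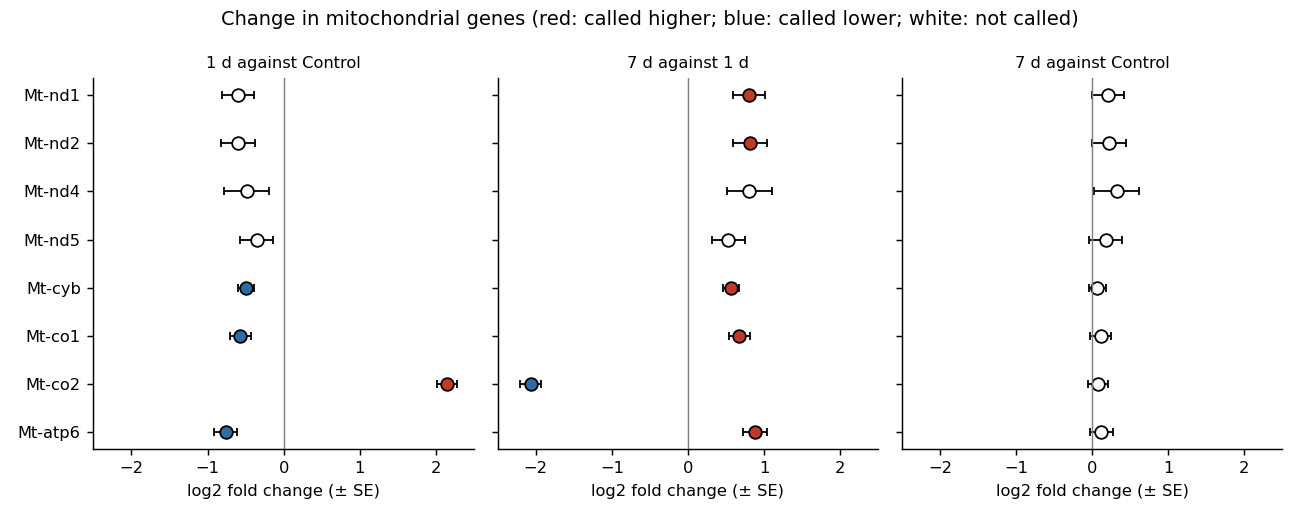
Log2 fold change (horizontal axis, bars show the SE) of the 8 genes in 3 comparisons, with 3 libraries a group; red points were called higher, blue points lower, and white points were not called. Mt-co2 has the opposite sign to the other 7 at 1 d against Control (2.15) and at 7 d against 1 d (-2.06), and at 7 d against Control all 8 lie between 0.07 and 0.32 with none called.

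The size of the falls at 1 d was read against other genes with a mean of at least 1000 CPM, a comparison chosen after the data were seen. That bound is only a floor, so these genes were not matched to the 8 in level. Any mitochondrially encoded genes among them could not be picked out. Among the 75 genes outside the 8 with a mean of at least 1000 CPM, 27 were called lower at 1 d, 36% of them, and 2 were called higher, 2.67%. The count of 3 of 8 mitochondrial genes lower is therefore close to the share of other abundant genes that were lower. The median log2 fold change was -0.53 over the 8 genes, -0.57 over the 7 without Mt-co2, -0.21 over the 75 abundant genes and -0.02 over all genes tested. Of the 75, 1 had a log2 fold change below that of Mt-atp6, 3 below that of Mt-co1 and 22 below that of Mt-nd5.

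The falls were smaller or lost under some settings. After cyclic loess normalization, which removes trends with abundance, Mt-co1, Mt-cyb and Mt-atp6 had log2 fold changes of -0.15, -0.16 and -0.42 at 1 d against Control and were no longer called (limma-trend adjusted p = 0.364, 0.213 and 0.0592), while Mt-co2 was at 2.40 (adjusted p = 2.23e-05). Without Control replicate 1 the 3 falls were still called, at -0.37, -0.35 and -0.53 (edgeR adjusted p = 0.0134, 0.00713 and 0.0037), and Mt-nd4 and Mt-nd5 moved to -0.07 and -0.04. The falls of Mt-co1 and Mt-cyb were lost without 1 d replicate 1 and without 1 d replicate 2, where the calls were Mt-co2 and Mt-atp6, and that of Mt-co1 was also lost when the 7 d libraries were left out of the fit. Without Control replicate 3, Mt-nd1 and Mt-nd2 were called lower as well, at -0.76 each (edgeR adjusted p = 0.03 and 0.0419).

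From 1 d to 7 d, 5 of the 8 genes were higher and 1, Mt-co2, was lower (edgeR adjusted p below 0.05). Over all genes tested 13.4% were higher, 15.8% were lower and 29.2% were called in either direction, and among the 75 other abundant genes 50.7% were higher. The split over all genes, 2320 higher and 2749 lower, moved to 1456 and 3294 when counts were scaled by library totals alone, while with upper-quartile factors it was 2757 and 2561; under both scalings 5 of the 8 genes were higher and 1 was lower. In all 8 genes the 1 d and 7 d libraries did not overlap, which was so for 48.8% of all genes tested. The median log2 fold change was 0.74 over the 8 genes, 0.26 over the 75 abundant genes and 0.03 over all genes tested. After cyclic loess normalization 2 of the 8 were called, Mt-atp6 at 0.54 (limma-trend adjusted p = 0.0168) and Mt-co2 at -2.32 (adjusted p = 3.15e-05).

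At 7 d against Control, none of the 8 genes was called by edgeR's quasi-likelihood test or by DESeq2, none had an unadjusted p below 0.05, and 1.02% of all genes tested were called. All 8 means were above Control, with log2 fold changes from 0.07 (Mt-cyb, SE 0.108) to 0.32 (Mt-nd4, SE 0.296). All 8 values were smaller with Control replicate 1 than without it. In all 8 genes every 7 d library was above Control replicates 2 and 3. Without Control replicate 1, Mt-nd1, Mt-nd2 and Mt-atp6 were called higher at 7 d, with log2 fold changes of 0.52, 0.56 and 0.36 (edgeR adjusted p = 0.0262, 0.0193 and 0.0391), and 4.18% of all genes tested were then called. The other 5 genes had log2 fold changes of 0.21 to 0.74 without that library and were not called (edgeR adjusted p between 0.0629 and 0.243). With 3 Control libraries, the order of Control and 7 d levels is thus not resolved for these genes; both comparisons with Control share the same Control libraries.

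**Figure D4:**
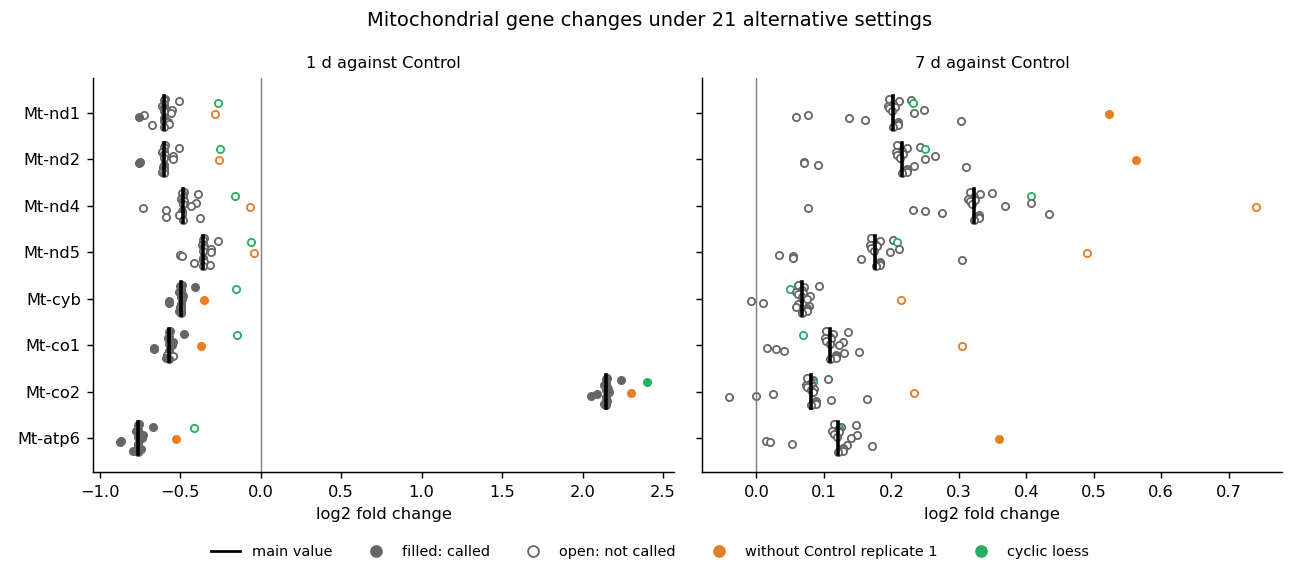
Log2 fold change (horizontal axis; the scales differ) of the 8 genes at 1 d and at 7 d against Control under 21 alternative settings, 1 point each, with filled points called and open points not called; the black line is the main value, orange marks the fit without Control replicate 1 and green the cyclic loess normalization. Mt-co2 is called under every setting at 1 d, and at 7 d the orange points lie to the right of the other settings for every gene.

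The summed share of counts, which depends on no scaling factor, was lowest at 1 d. The 8 genes took 7.43, 5.07 and 5.26% of all counts in Control replicates 1 to 3, 4.73, 4.62 and 4.97% at 1 d and 7.00, 6.38 and 6.15% at 7 d. All 1 d libraries were below all others. The rise of Mt-co2 partly offset the other genes in this sum: without Mt-co2 the share went from 5.78 ± 1.29% in Control to 4.14 ± 0.159% at 1 d and 6.37 ± 0.423% at 7 d (SD, n = 3 each). The log2 ratio of the share at 1 d to Control was -0.31 with Mt-co2 and -0.48 without it. Leaving out Control replicate 1 moved the first to -0.11, and the second was not recomputed without that library.

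**Figure D5:**
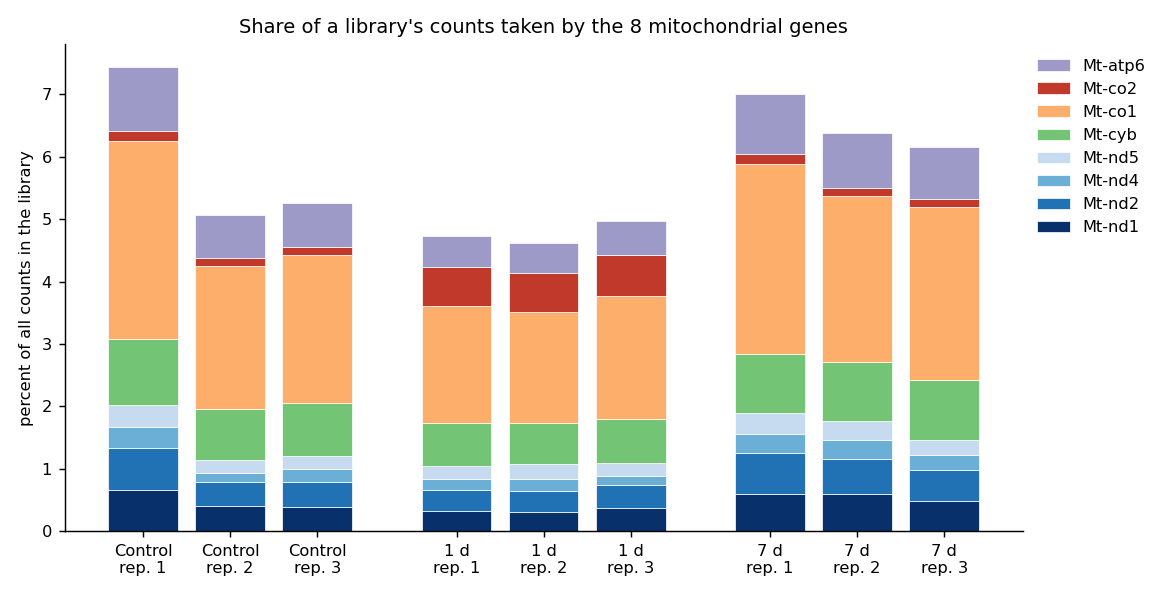
Percent of all counts in a library (vertical axis) taken by each of the 8 genes, stacked, for the 9 libraries. The 1 d libraries have the lowest totals, 4.62 to 4.97%, and the widest Mt-co2 band, 0.625 to 0.659% against 0.122 to 0.164% in the other 6 libraries.

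Ratios between the genes within a library depend on neither depth nor scaling. For every 1000 counts of the other 7 genes, Mt-co2 had 21.6, 25.4 and 23.8 counts in Control replicates 1 to 3, 152, 156 and 153 counts at 1 d, and 24.0, 20.3 and 23.0 counts at 7 d. The mean at 1 d was 6.51-fold that in Control. Control replicate 1, which stood apart in the level of the other 7 genes, did not stand apart in this ratio. The share of Mt-co2 in the counts of the 8 genes was 2.31 ± 0.182% in Control, 13.3 ± 0.174% at 1 d and 2.19 ± 0.182% at 7 d (SD, n = 3 each), a difference of 11.02 percentage points between 1 d and Control.

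The balance among the other 7 genes moved less. Mt-atp6 made up 14.0 ± 0.154% of their counts in Control, 12.3 ± 0.236% at 1 d and 13.9 ± 0.122% at 7 d (SD, n = 3 each), and the 1 d libraries did not overlap the others. Mt-co1 made up 45.3 ± 1.44%, 45.2 ± 0.766% and 44.3 ± 1.59%, which overlapped in all 3 groups. Relative to Mt-co1, Mt-atp6 had 32.4, 30.4 and 30.1% of its counts in Control replicates 1 to 3, 26.8, 27.3 and 27.6% at 1 d and 31.4, 32.8 and 30.0% at 7 d. Of the 21 ratios between pairs of these 7 genes, 5 did not overlap between 1 d and Control. Of these 5, 4 involved Mt-atp6 and 1 was Mt-nd2 to Mt-nd5. Between 7 d and 1 d 7 of the 21 did not overlap, and between 7 d and Control 0. All 7 ratios with Mt-co2 were apart between 1 d and Control and between 7 d and 1 d, and 0 between 7 d and Control. The pairs share genes, so these counts are not independent, and the 7 with Mt-co2 restate the course of that gene. The share of pairs of other genes that did not overlap was not computed.

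By complex, the 4 complex I genes took 24.2 ± 2.54% of the counts of the 8 genes in Control, 22.4 ± 0.671% at 1 d and 26.2 ± 2.14% at 7 d (SD, n = 3 each). Their 7 d libraries were above their 1 d libraries, and both groups overlapped Control. The complex IV pair took 46.5 ± 1.501%, 52.5 ± 0.569% and 45.5 ± 1.63%, where the 1 d value was above all others through Mt-co2. Mt-cyb, for complex III, took 15.6 ± 1.17%, 14.4 ± 0.0706% and 14.7 ± 1.13%, with overlapping groups. Mt-atp6, for complex V, took 13.7 ± 0.161%, 10.7 ± 0.217% and 13.6 ± 0.132%, and its 1 d libraries were below all others. These shares are parts of the same sum, so the rise of Mt-co2 lowers the other shares at 1 d. Within complex I, the counts of Mt-nd4 were 35.9 to 51.6% of those of Mt-nd1 in Control, 38.8 to 60.3% at 1 d and 49.7 to 51.0% at 7 d.

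Profiles over the 9 libraries were compared by the root mean square difference of log2 CPM centred on each gene's mean. Between pairs of the 7 genes without Mt-co2 it ranged from 0.0725 (Mt-nd1 and Mt-nd2) to 0.285 (Mt-nd4 and Mt-cyb), and between Mt-co2 and the others from 1.204 to 1.381. Among 12321 other genes with a mean of at least 5 CPM, those closest to the mean profile of all 8 genes were ENSRNOG00000010121 at 0.0865 and ENSRNOG00000048719 at 0.0929. Because Mt-co2 and the other genes offset each other in that mean, its course is shallow, and neither gene was called at 1 d against Control (log2 fold changes -0.11 and -0.30, edgeR adjusted p = 0.697 and 0.135). The gene closest to the mean of the 7 without Mt-co2, a choice made after the values were seen, was ENSRNOG00000030700 at 0.0817, which went from 11207 ± 2494 CPM in Control to 7592 ± 202 at 1 d and 12206 ± 497 at 7 d (SD, n = 3 each). Its log2 fold change was -0.56 at 1 d against Control (edgeR adjusted p = 0.017), close to the -0.57 of Mt-co1. No identifier was matched to a symbol, so whether this or the other nearest genes are mitochondrially encoded was not determined. The gene closest to Mt-co2 was ENSRNOG00000028137 at 0.309, farther than any pair of the 7 others, with 3.18 ± 0.614 CPM in Control, 16.02 ± 2.14 at 1 d and 2.35 ± 0.147 at 7 d (SD, n = 3 each), and a log2 fold change of 2.33 at 1 d (edgeR adjusted p = 0.000696).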

How the data were processed

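The authors deposited raw counts, whole numbers without normalization, in 1 table of 34784 genes by 9 libraries. Per the submitters' processing notes, the tools were featureCounts (1.5.0-p3), DESeq2 (1.16.1) and HISAT2 (2.0.5). Not given in the sources used here are the build, annotation, strand setting and handling of multi-mapping reads. Libraries were grouped by title. Genes kept by filterByExpr (17345) were scaled by TMM and all 9 libraries were fitted together, with group as sole factor (edgeR 4.0.16, robust quasi-likelihood test; R 4.3.3, limma 3.58.1, DESeq2 1.42.0). Two-sided p-values were adjusted over all genes tested by the Benjamini-Hochberg method. The fit was also run on simulated counts, with dispersions estimated from these data and genes changed at random. The simulation held no outlying library, so it does not bear on results that turn on Control replicate 1. An SE is the absolute log2 fold change over the square root of F.

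The 8 genes and all lists were chosen with earlier results of these data known. All 8 were named, with the 2 genes nearest to their mean profile; the genes nearest to Mt-co2 and to the mean of the other 7 were added after the values were seen. The reference table (47357 rows) held 0 Ensembl identifiers, so 0 rows were matched to symbols. The planned lists of nuclear respiratory chain, mitochondrial upkeep and cell type marker genes, and other mitochondrial genes, were not analysed here by name. Rows of such genes may be among the other genes compared. The part of other cell types in these results was not tested. Summed shares and ratios are described without a test. Alternatives covered scaling, filters, tools, compared groups, a replicate block and left-out libraries.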

Additional observations from a re-analysis of the deposited data

Results flagged for a closer look

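The difference from Control was not the same at 1 d and 7 d for 6 of the 8 genes, by the direct test of 7 d against 1 d (edgeR, adjusted p below 0.05). The log2 fold change between the times was -2.06 for Mt-co2, 0.88 for Mt-atp6, 0.82 for Mt-nd2, 0.80 for Mt-nd1, 0.68 for Mt-co1 and 0.56 for Mt-cyb. Mt-co2 was lower at 7 d in 3 of 3 libraries, and the other 5 were higher in 3 of 3. Over all genes tested, 29.2% were called in this comparison, and in 48.8% the libraries of the 2 times did not overlap. Among the 75 genes outside the 8 with a mean of at least 1000 CPM, 50.7% were called higher at 7 d.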

How the results depend on the processing

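Each comparison was recomputed under 21 alternatives. At 1 d against Control 4 of 8 genes were called, 1 after cyclic loess normalization and 2 to 6 when a library was left out. DESeq2 called 5 in that comparison, and a fit of the 2 compared groups called 3. At 7 d against Control 0 were called, and 0 to 3 when a library was left out, with 3 without Control replicate 1. At 7 d against 1 d 6 were called, 2 after cyclic loess normalization and 4 to 8 when a library was left out. DESeq2 called 7 between the times, and a fit of the 2 compared groups called 8. The cause of these changes was not tested. Reversed signs occurred at 7 d against Control: leaving out a library gave log2 fold changes of -0.0087 (without Control replicate 2) to 0.21 for Mt-cyb, and of -0.041 (without 7 d replicate 1) to 0.23 for Mt-co2, which was at -0.00067 without Control replicate 3. The log2 ratio of the summed share at 7 d to 1 d was 0.45, 0.53 from summed CPM and 0.62 without Mt-co2, the last chosen after seeing the data, as was scaling without the 20 most abundant rows.

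Same-numbered libraries of different groups did not deviate together (0 of 9 pairs correlated above 0.1, range -0.155 to 0.0351), so the numbers were not taken to pair libraries. With the replicate number as a block, 4, 0 and 6 of the 8 genes were called at 1 d, at 7 d and between the times. Over all genes 3540 were called at 1 d, 2066 in a fit of the 2 groups, and 1440 at the lowest when a library was left out. At 7 d 177 were called, 523 by DESeq2, 28 in a fit of the 2 groups, 74 with the replicate block and 7 to 739 when a library was left out. Between the times 5069 were called, and 3071 at the lowest when a library was left out. Counts divided by coding length were not run, since no lengths were used here. Counting error was at most 0.711% for any of the 8 genes in any library.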
